A study of Mus musculus with 36 samples.

Results

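Immediate early transcription factors are nuclear proteins whose genes are switched on within minutes of a stimulus, without new protein being made first. The 10 genes described here were taken by name: Fos, Fosb, Jun, Junb, Atf3, Egr1, Egr2, Egr3, Ier2 and Nr4a1. They are 10 of the 46078 genes in the deposited count table. Messenger RNA was sequenced from lung tissue of female wild type C57BL/6 mice, an inbred laboratory strain, after 1 intranasal dose of graphene oxide, a sheet-like form of oxidised carbon. The labels name 3 sheet materials, US, S and L, each given at 50 μg per mouse, and D, the dextrose carrier given alone at 0 μg of graphene oxide. Sheets in US, S and L were suspended in the same dextrose carrier, so the carrier and the instillation are shared by all groups. Lungs were taken at day 1 (age 9 weeks), day 7 (10 weeks) or day 28 (13 weeks), which gives 12 groups of 3 libraries, 36 in all. The protocols state 4 to 5 animals in a group. Which animal each library came from is not labelled, so the p-values below measure the spread between these libraries, which may be partly technical.

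Fos, Fosb, Jun and Junb encode the leucine zipper proteins that pair to form the transcription factor AP-1, and Atf3 encodes a stress-induced zipper protein that pairs with Jun proteins and often represses. Egr1, Egr2 and Egr3 encode zinc finger proteins that bind GC-rich sites near gene starts. Ier2 encodes a small nuclear protein, and Nr4a1 an orphan nuclear receptor whose activity is set mainly by how much of it is made. In lung these genes are known to respond within an hour to growth factors, stretch and tissue injury, and their messages decay quickly. Because the tissue was measured in bulk, fewer cells of a type and less RNA per cell cannot be told apart.

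The genes lie on 9 chromosomes of the mouse build GRCm38. Fosb spans chr7:19302721-19310045, Egr3 chr14:70077445-70080157, Fos chr12:85473890-85477273, Jun chr4:95049034-95052222, Atf3 chr1:191170296-191218039, Egr2 chr10:67535475-67542188 and Nr4a1 chr15:101266846-101274792. Junb (chr8:84976909-84978748) and Ier2 (chr8:84661331-84662852) share a chromosome. RefSeq promoter windows (GRCm38.p6) were matched for 7 of the 10 genes, and Egr1, Egr3 and Ier2 had no entry used here. Below are the 130 bases before the start of 5 of them: Fos, Junb and Nr4a1, which varied together between libraries; Atf3, the gene called against dextrose; and Egr2, which correlated little with most others. Capitals mark TGACG, the core of the cyclic AMP response element, or its reverse complement CGTCA, and in Egr2 also a CArG box, the sequence bound by serum response factor. Egr2 had several starts, and the window shown lies inside its span, as does that of Atf3. The Egr2 window at chr10:67535369-67535498 held neither motif, and that at chr10:67537436-67537565 held a CArG box without TGACG.
Fos (chr12:85473760-85473889, plus strand): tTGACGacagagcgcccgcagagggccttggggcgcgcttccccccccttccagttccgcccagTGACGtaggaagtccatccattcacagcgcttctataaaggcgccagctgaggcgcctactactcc
Junb (chr8:84978749-84978878, minus strand): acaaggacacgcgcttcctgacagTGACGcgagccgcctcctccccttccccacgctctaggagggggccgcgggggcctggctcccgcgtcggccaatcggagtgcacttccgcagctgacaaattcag
Nr4a1 (chr15:101266716-101266845, plus strand): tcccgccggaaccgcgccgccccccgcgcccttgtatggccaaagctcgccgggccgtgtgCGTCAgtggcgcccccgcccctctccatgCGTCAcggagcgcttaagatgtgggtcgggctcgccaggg
Atf3 (chr1:191183334-191183463, minus strand): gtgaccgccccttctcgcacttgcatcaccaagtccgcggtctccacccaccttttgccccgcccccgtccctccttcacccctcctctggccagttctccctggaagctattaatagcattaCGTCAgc
Egr2 (chr10:67537739-67537868, plus strand): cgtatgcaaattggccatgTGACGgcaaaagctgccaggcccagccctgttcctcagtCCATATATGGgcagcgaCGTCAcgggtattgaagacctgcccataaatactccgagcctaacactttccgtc
Over the 250 bases before each start, searched on both strands, a motif was counted if present before any start of a gene. TGACG was present in 6 of the 7 members matched, against 19.8% of 27025 genes, and Jun was the exception. A CArG box was present in Egr2 alone of the 7 (1.62% of genes). The AP-1 site TGANTCA was present in 0 of the 7 (7.82% of genes), and the EGR sites GCGTGGGCG or GCGGGGGCG in 2, Fosb and Nr4a1 (3.48% of genes). A match is a description of the letters in this window and does not show binding, and no match says only that the letters are not in it.

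S day 7 replicate 2 held 80566751 counts in total, 4.13 times the median of the other 35 libraries, which lay between 16154696 and 23808264. Lung epithelial markers summed to between 46578 and 78977 CPM (counts scaled to a common library total), so surfactant and airway genes of the labelled tissue were abundant in every library. All 10 members passed the filter on low counts.

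By TPM, which scales for transcript length and so allows levels of different genes to be compared, Jun was the most abundant member, with a median of 96.6 over the 36 libraries. Fos (65.2) and Nr4a1 (61.3) followed, then Ier2 (32.0), Junb (30.3), Egr1 (28.8) and Atf3 (15.9). Egr2 (2.96), Fosb (1.65) and Egr3 (0.426) were low. Egr3 rested on 1 to 28 counts in a library, so differences in it were not resolvable at this depth. Neighbours in this order overlapped in their ranges, except that all Atf3 values lay above those of Egr2.

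Across the 9 comparisons of sheets with D of the same day, 1 of 90 member tests passed an adjusted p of 0.05 in edgeR's quasi-likelihood test: Atf3 rose in S at day 7. Each of these comparisons called 0.0237% to 2.15% of all genes, with 0.45% in S at day 7. Among sheet sizes, 1 of 90 passed: Fos was lower in L than in S at day 7. The size comparisons called 0% to 0.515% of all genes each, with 0.154% in L against S at day 7. In the dextrose groups over time, Egr1 and Ier2 were called lower at day 28 than at day 7. That comparison called 6.74% of all genes lower and 15.7% in either direction. The Egr1 call was lost on leaving out any single library of these groups, and both calls were lost in limma on TPM. Libraries within a group differed widely for most members, and the plot of CPM by library shows both this and the day 1 and day 7 contrasts described below.

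**Figure D1:**
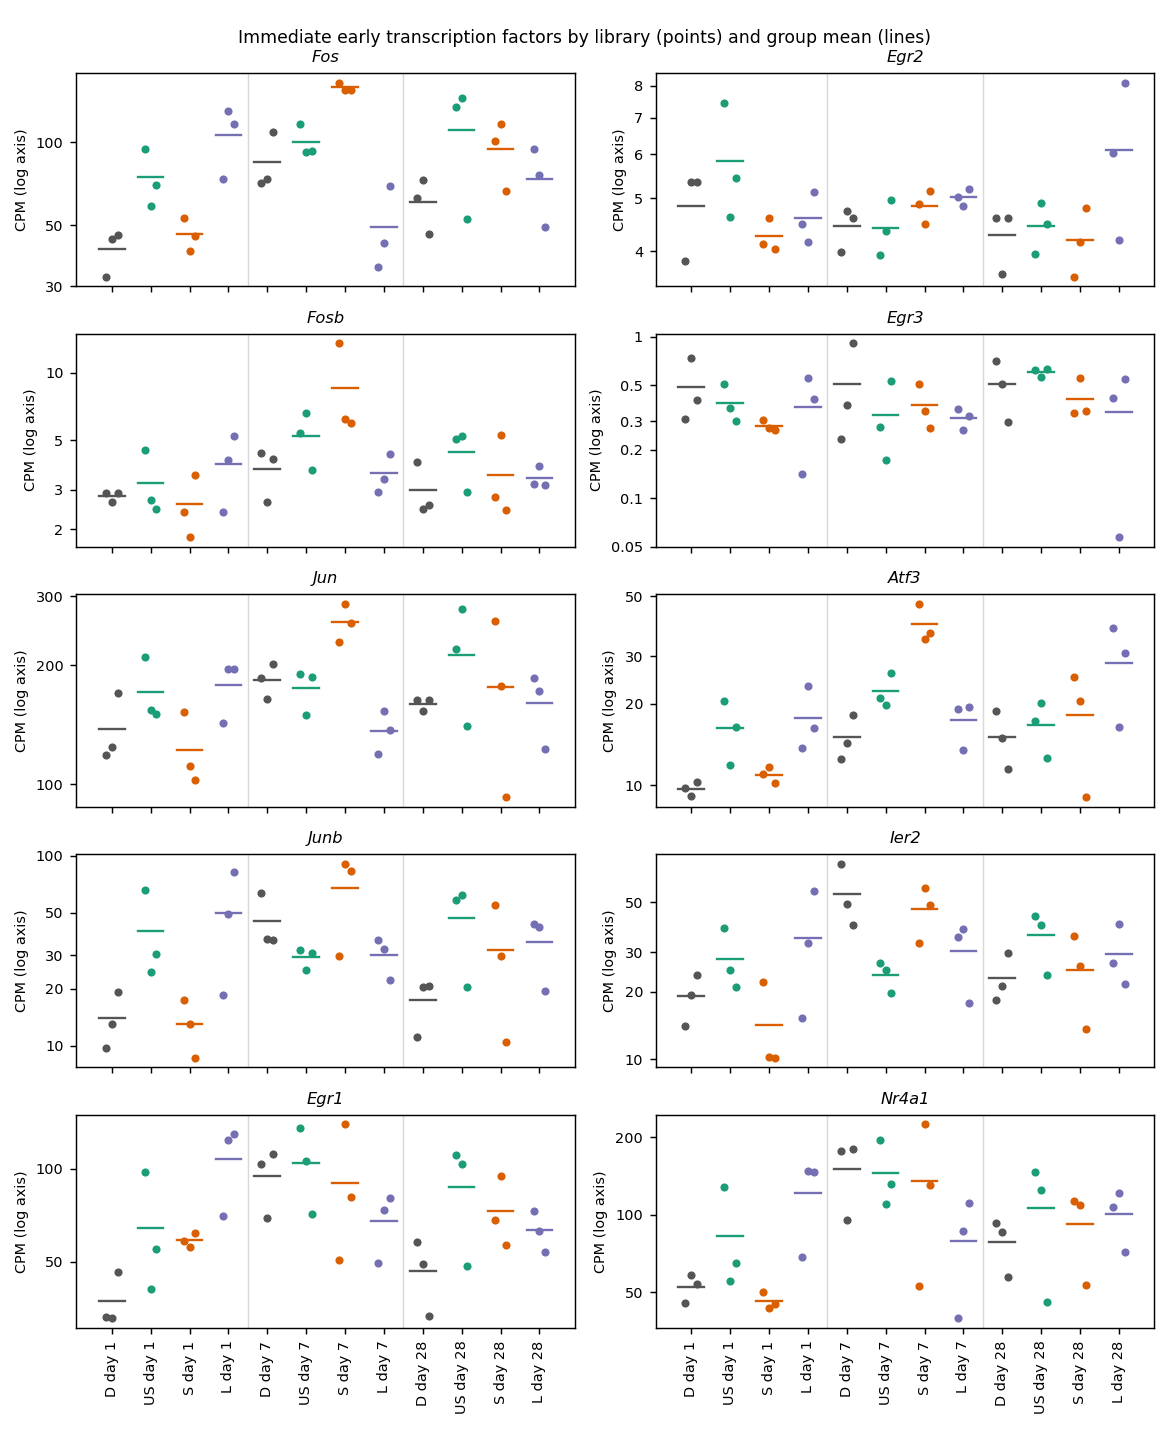
CPM of the 10 genes in each of the 36 libraries (points, log axis) by group on the horizontal axis, with the group mean as a line; D is grey, US green, S orange and L purple. The 3 S day 7 libraries hold the 3 highest Fos values, and Atf3 is high in S at day 7.

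Fos, the AP-1 partner of Jun, was measured in D at day 1 at 32.5, 44.5 and 45.9 CPM. In L at day 1 it was 73.8, 129.5 and 116.02 CPM, in US 94.5, 58.7 and 70.1 CPM, and in S 53.1, 40.2 and 45.6 CPM. All L and all US libraries lay above all D libraries at day 1, and the S libraries overlapped them. The log2 difference from D was 1.42 ± 0.30 (SE) in L, 2.68-fold, with an adjusted p of 0.0856, and 0.93 ± 0.30 in US, with an adjusted p of 0.130, so neither passed. DESeq2 gave an adjusted p of 0.00289 for the L difference, and edgeR without the filter on low counts gave 0.0108.

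At day 7, Fos in D was 71.1, 73.3 and 108.8 CPM, in US 116.4, 91.9 and 92.5 CPM, in S 164, 155 and 155 CPM, and in L 35.2, 43.1 and 69.2 CPM. The S libraries were the highest 3 of all 36 libraries, and the L libraries the lowest 3 of day 7. Against D the differences were 0.85 ± 0.30 in S (adjusted p of 0.245) and -0.81 ± 0.30 in L (adjusted p of 0.762), so neither passed. A fit of only the 2 groups compared called the S difference (adjusted p of 0.0337). Between the sheets, Fos was lower in L than in S by 1.67 ± 0.30 on the log2 scale, 3.17-fold, with an adjusted p of 0.00738. In that comparison 0.0769% of genes were called lower and 0.154% in either direction. The call was lost without L day 7 replicate 1 (adjusted p of 0.137) or replicate 2 (0.0968) and kept without each of the other 4. Among 10 clock genes that cycle in phase with Dbp, 5 were higher in L than in S (Hlf 1.72 ± 0.19, Tef 1.23 ± 0.18 and Per3 1.44 ± 0.21 among them). Among 5 that cycle with Arntl, 2 were lower. Their part in the Fos difference was not tested.

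At day 28, Fos in D was 62.9, 72.9 and 46.3 CPM, in US 134.2, 144 and 52.5, in S 101.1, 116.3 and 66.7, and in L 94.7, 76.2 and 49.2. Replicate 3 was the lowest library in each of the 4 groups, and each sheet group overlapped D. Ordered by mean, the 12 groups ran from D day 1 (41.0 CPM) and S day 1 (46.3) through L day 7 (49.2), D day 28 (60.7), L day 28 (73.3), US day 1 (74.4), D day 7 (84.4), S day 28 (94.7), US day 7 (100.3), L day 1 (106.4) and US day 28 (110.3) to S day 7 (158). Neighbours in that order overlapped in their libraries, except that all S day 7 libraries lay above those of US day 28.

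Atf3 was 12.6, 14.3 and 18.3 CPM in D at day 7 and 47.0, 34.7 and 36.7 CPM in S. The 2 groups did not overlap. The difference was 1.34 ± 0.29 on the log2 scale, 2.53-fold, with an adjusted p of 0.0333, in a comparison where 0.408% of genes were called higher and 0.45% in either direction. US (21.0, 19.7 and 26.0 CPM) also lay above D but did not pass (0.54 ± 0.29, adjusted p of 0.235), and L (19.2, 13.5 and 19.5 CPM) overlapped it. The S call was kept without D day 7 replicate 3 and lost without any other single library, with adjusted p from 0.0674 to 0.201. Between these groups the summed macrophage markers (1180 to 1952 CPM in S, 883 to 1447 in D) and neutrophil markers (139 to 199.5 and 173 to 233) overlapped, and platelet markers (32.4 to 35.0 and 36.7 to 44.4) did not; their part was not tested. At day 1, Atf3 was 9.78, 9.15 and 10.25 CPM in D. It was 20.4, 11.9 and 16.45 CPM in US and 13.7, 23.3 and 16.3 CPM in L. All US and all L libraries lay above all D libraries at day 1, and S overlapped D. The difference was 0.812 ± 0.302 in US (adjusted p of 0.186) and 0.911 ± 0.302 in L (adjusted p of 0.589). Neither passed. At day 28, L was 38.1, 16.4 and 30.8 CPM against 18.9, 14.98 and 11.5 in D, which overlapped, and the difference of 0.89 ± 0.29 had an adjusted p of 0.111.

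Fosb, a Fos relative whose truncated product persists in chronically stimulated cells, was 13.5, 6.22 and 5.95 CPM in S at day 7 and 4.40, 2.64 and 4.10 in D. The groups did not overlap, and the difference was 1.14 ± 0.34 with an adjusted p of 0.144. S replicate 1, at 13.5 CPM, was the highest of the 36 libraries. Without it the difference was 0.68. Jun in S at day 7 was 229.6, 287 and 256 CPM against 186, 164 and 201 in D, which did not overlap, and the difference was 0.44 ± 0.25 with an adjusted p of 0.633. Jun at day 28 in US was 219.6, 279 and 140.5 CPM against 163, 153 and 164 in D, and replicate 3 was below all of the D libraries.

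Junb, which can restrain Jun activity, varied more than the other AP-1 genes. At day 1 it was 9.78, 13.1 and 19.3 CPM in D, 65.6, 24.5 and 30.5 in US, 17.3, 13.1 and 8.66 in S, and 18.6, 49.6 and 81.9 in L. US lay above D, whereas L replicate 1 fell inside the D range. The differences were 1.59 ± 0.55 in US (adjusted p of 0.154) and 1.87 ± 0.55 in L (adjusted p of 0.424). At day 7, S replicate 1 (29.6 CPM) was below all D libraries (63.8, 36.3 and 36.2), and the other 2 S libraries (90.4 and 83.1) were above them. At day 28, US was 58.6, 62.3 and 20.5 CPM against 11.2, 20.5 and 20.7 in D.

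**Figure D2:**
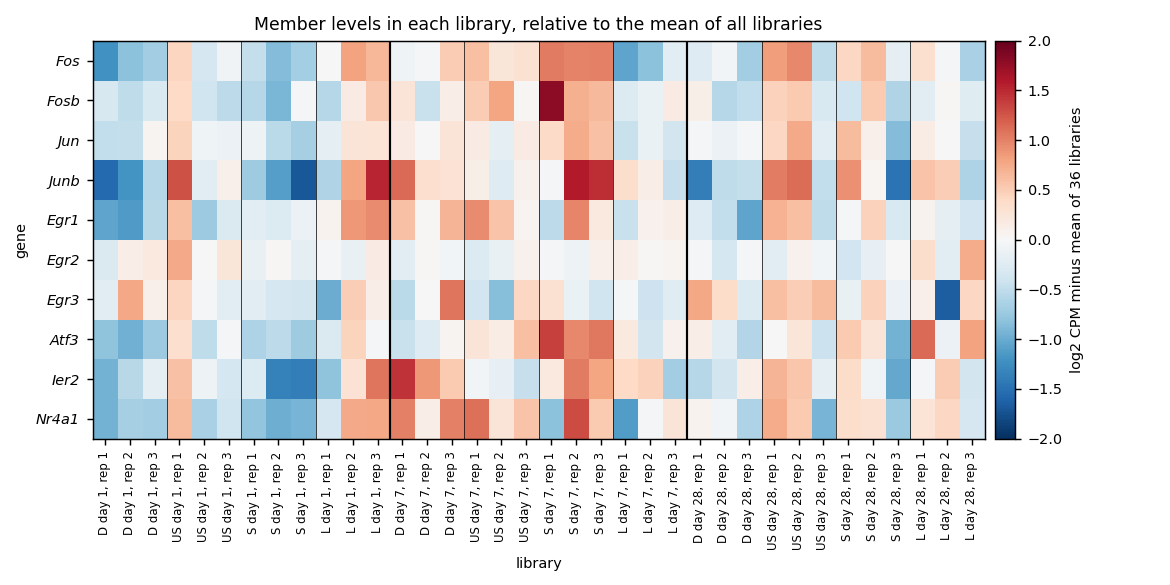
Level of each gene in each library as log2 CPM minus the mean over the 36 libraries, on a scale from -2 (blue) to 2 (red), with libraries in group order and thick lines between days. S day 7 replicate 1 is red for Fos, Fosb and Atf3 but blue for Egr1 and Nr4a1; D day 1 is blue for most members.

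Egr1 was 33.0, 32.8 and 46.3 CPM in D at day 1 and 70.5, 123.8 and 129.8 in L, which did not overlap. The difference was 1.57 ± 0.35, 2.97-fold, with an adjusted p of 0.113 in edgeR, 0.0164 in edgeR without the filter and 0.0151 in DESeq2. S (58.3, 55.6 and 61.8 CPM) also lay above D at day 1 (0.70 ± 0.35), and US (97.6, 40.9 and 55.1) overlapped it. At day 7, D (103.5, 69.5 and 112.1 CPM), US (135.7, 105.9 and 71.6), S (50.6, 139.5 and 80.8) and L (49.3, 73.7 and 80.4) overlapped. S replicate 1, the highest library for Fosb and Atf3, was the lowest of S for Egr1 and for Nr4a1.

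Egr2 and Egr3 passed no test. Egr2 ranged from 3.60 to 8.09 CPM over all 36 libraries, and its highest value was in L at day 28 (6.05, 4.19 and 8.09 CPM against 4.60, 3.65 and 4.59 in D; difference 0.48 ± 0.20, adjusted p of 0.206). Leaving out L day 28 replicate 3 gave 0.25, and leaving out replicate 2 gave 0.71. Egr3 ranged from 0.0573 to 0.911 CPM.

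Ier2 was 74.1, 49.2 and 39.7 CPM in D at day 7 and 26.7, 25.1 and 19.7 in US, which did not overlap. The difference was -1.21 ± 0.40 with an adjusted p of 0.0782, and DESeq2 gave 0.0486. Nr4a1 at day 1 was 45.6, 58.3 and 54.1 CPM in D, 68.4, 148 and 147 in L, 127.8, 55.6 and 65.2 in US, and 50.0, 43.5 and 45.3 in S. L lay above D (1.25 ± 0.45, adjusted p of 0.717) and US overlapped it. Nr4a1 in L at day 7 was 39.7, 86.8 and 111.7 CPM against 178, 95.7 and 180.2 in D, which overlapped.

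By comparison, members at an unadjusted p under 0.05 were counted beside the same share of all genes. At day 1 the count was 4 higher in US (9.36% of all genes), 0 in either direction in S (21%) and 6 higher in L (2.86%), and 3, 1 and 4 members had all 3 sheet libraries above all 3 of D (5.72%, 13.4% and 3.23% of genes). 0 members passed the adjusted threshold in edgeR at day 1, where 0.0887%, 0.0473% and 0.0237% of genes did, and DESeq2 called Fos and Egr1 in L. At day 7 the adjusted threshold was passed by 2.09% of genes in US, 0.45% in S and 0.154% in L, and by 0, 1 and 0 members. The unadjusted counts were 1 lower in US (12.9%), 3 higher in S (5.27%) and 3 lower in L (2.17%). In US all libraries lay above D for 1 member (Atf3, with 9.79% of genes) and below for 2 (Junb and Ier2, with 8.87%). In S 4 members lay above D (Fos, Fosb, Jun and Atf3, with 11.1% of genes). In L 4 lay below (Fos, Jun, Junb and Ier2, with 2.55%) and 1 above (Egr2, with 4.99%). At day 28 they were 3 higher in US (3.37%), 1 in S (5.18%) and 2 in L (8.11%), none of them called in edgeR or DESeq2, in comparisons calling 0.0237%, 0.237% and 2.15% of genes, and no member separated from D. The median member difference was 0.91 in L and 0.68 in US at day 1, -0.10 in S at day 1, -0.06 in US, 0.25 in S and -0.56 in L at day 7, and 0.50 in US, 0.22 in S and 0.32 in L at day 28, while the median over all genes lay between -0.02 and 0.01 in these comparisons. These comparisons share D libraries within a day.

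**Figure D3:**
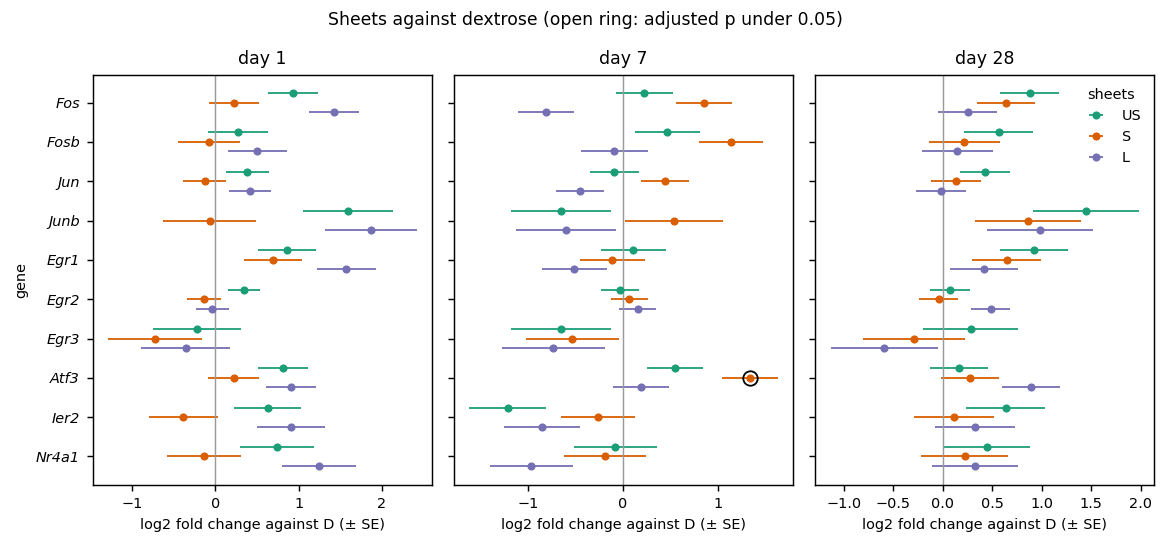
Log2 fold change of each gene against D of the same day, with its standard error, for US (green), S (orange) and L (purple), in 1 panel per day; an open ring marks an adjusted p under 0.05. Atf3 in S at day 7 is the ringed point.

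Between sheet sizes on the same day, Fos in L against S at day 7 was the only member called in edgeR. At day 1, S was the low group by unadjusted p: 7 of 10 members were higher in L than in S at an unadjusted p under 0.05 (7.6% of all genes were), with Junb at 1.93 ± 0.55, Nr4a1 at 1.38 ± 0.45 and Fos at 1.19 ± 0.30 on the log2 scale, and adjusted p from 0.457 to 0.476. Against US, 4 members were lower in S (9.07% of genes), while 1 was higher in L than in US (2.93%). At day 7, 6 members were higher in S than in US (6.25% of genes), with adjusted p from 0.287 to 0.378. The differences were largest for Junb (1.19 ± 0.52), whose libraries overlapped, and Ier2 (0.95 ± 0.40). The lowest adjusted p was that of Atf3 (0.79 ± 0.29), whose libraries did not overlap. In the same way 5 members were lower in L than in S (3.25% of genes): Fos, Fosb (-1.23 ± 0.34), Atf3 (-1.15 ± 0.29), Junb (-1.14 ± 0.52) and Jun (-0.89 ± 0.25). DESeq2 also called Atf3 in that comparison, with an adjusted p of 0.0311. In the other 8 size comparisons edgeR called 0 members: S against US called 0.0177% of all genes at day 1, 0.142% at day 7 and 0% at day 28, L against US 0%, 0.00592% and 0.515%, and L against S 0% at day 1 and 0.0651% at day 28.

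The change of the sheet effect from day 1 to day 28 was tested as an interaction. 0 of 10 members passed for US, S or L in edgeR, where 0.0473%, 0.195% and 0.243% of all genes did, and DESeq2 also called 0. At an unadjusted p under 0.05 the member counts in either direction were 0 for US (10.8% of all genes), 0 for S (21.1%) and 2 for L (12.5%), namely Fos (-1.17 ± 0.42) and Egr1 (-1.16 ± 0.49).

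In dextrose alone, 6 members lay above day 1 at day 7 in all libraries: Fos, Junb, Egr1, Atf3, Ier2 and Nr4a1 (13.3% of genes did so). The largest differences were Junb (1.70 ± 0.55), Nr4a1 (1.53 ± 0.45), Ier2 (1.52 ± 0.41) and Egr1 (1.35 ± 0.35). None passed the adjusted threshold in edgeR (adjusted p of 0.137 for Fos, Junb, Egr1, Ier2 and Nr4a1), and 0% of all genes did. At an unadjusted p under 0.05, 6 members were higher (11.2% of genes). DESeq2 gave an adjusted p of 0.0499 for Egr1 at day 7 against day 1. A fit of only the 2 groups compared called Fos, Junb, Egr1, Ier2 and Nr4a1 (adjusted p from 0.00851 to 0.0212). Without D day 7 replicate 3, Junb, Egr1 and Ier2 were called (adjusted p from 0.0371 to 0.0476). From day 1 to day 28, edgeR called 0 members and 0.0769% of genes. From day 7 to day 28, Egr1 fell by 1.02 ± 0.35 on the log2 scale (adjusted p of 0.0444), from 103.5, 69.5 and 112.1 to 57.8, 49.2 and 33.2 CPM, and Ier2 fell by 1.23 ± 0.40 (adjusted p of 0.0394), from 74.1, 49.2 and 39.7 to 18.3, 21.2 and 29.8 CPM. That comparison called 6.74% of genes lower and 15.7% in either direction. The Egr1 call was lost without any single one of the 6 libraries, and the Ier2 call without any but D day 7 replicate 3. Both were also lost in limma on TPM. Between the same groups the summed markers of fat were 46.8 to 77.8 CPM at day 7 and 21.6 to 30.5 at day 28, of platelets 36.7 to 44.4 and 24.7 to 30.0, and of heart muscle 118.9 to 163 and 51.1 to 107.6. Of 10 heat shock chaperones 5 rose and 0 fell, 4 of the 10 genes cycling with Dbp fell, and 4 of the 5 cycling with Arntl rose. The part of these in the Egr1 and Ier2 differences was not tested.

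Of 34 other immediate early and early response genes tested, none rose against D in any of the 9 comparisons in edgeR. At an unadjusted p under 0.05, 8 were higher at day 1 in US (9.36% of all genes), 2 in S (11.3%) and 6 in L (2.86%). At day 7, 12 were lower in US (12.9%), 7 in S (4.06%) and 7 in L (2.17%), and at day 28, 3 in US (2.65%), 6 in S (4.69%) and 5 in L (8.63%). In the opposite direction the counts were 0 to 4. Klf2 and Cebpd fell in US at day 7, Dusp6 and Klf2 in S at day 7, Klf4 in S at day 28, and Klf4 and Nr4a3 in L at day 28. Klf2, a factor induced by blood flow, went from 216 CPM in D at day 7 to 70.1 in US and 80.5 in S. Klf4 went from 193 CPM in D at day 28 to 80.8 in S and 100.3 in L. The median of the list was 0.30 in US, -0.06 in S and 0.14 in L at day 1, -0.16 in US, -0.24 in S and -0.34 in L at day 7, and -0.09, -0.14 and -0.02 at day 28. Of 13 AP-1 partners and EGR co-repressors, 1 passed against D, Atf7 in US at day 7 (0.64 ± 0.16), and of 18 upstream kinases and factors, such as Srf, Elk1 and Creb1, none did (0 to 5 in a comparison had an unadjusted p under 0.05). Heat shock chaperones were lower than D at day 28 in 1 of 10 for US, 3 for S and 5 for L.

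Several members varied together between libraries of a group. With group means removed, 17 of 45 member pairs had a Pearson correlation over the 36 libraries with a permutation p, adjusted over the pairs, under 0.05. The same share among pairs of all genes was not computed, so whether this count is particular to the members was not tested. Egr1 and Nr4a1 were closest (r of 0.90, rho of 0.86, adjusted permutation p of 0.00036 for r and 0.00045 for rho). Without the 2 libraries farthest from the median of Egr1, their r was 0.87. The libraries left out were picked by 1 gene of a pair only: Junb for its pair with Ier2, Jun for its pair with Junb, and Egr2 for its pair with Egr3. Junb followed with Ier2 (r of 0.88, rho of 0.89, adjusted permutation p of 0.000225 for r, from the smallest p that 100000 permutations can give, and r of 0.85 without 2 libraries) and with Jun (r of 0.84, 0.79 without 2). Fos was close to Nr4a1 (r of 0.75), Egr1 (0.72) and Jun (0.70). Fos and Ier2 were not called (r of 0.36, adjusted permutation p of 0.18), nor were Atf3 and Ier2 (r of 0.12).

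By a split chosen after the correlations were seen, Egr2 and Egr3 stood apart: the 17 pairs that held either had a median r of 0.04, with 1 called (Egr3 with Atf3, r of 0.63), against 0.55 for the 28 pairs without them, 16 of which were called. Few called pairs were not particular to Egr2 and Egr3. Fosb had 1 of its 9 pairs called by Pearson correlation, with Fos (r of 0.55). By rho its pair with Egr1 passed as well (rho of 0.57, adjusted permutation p of 0.0192). Atf3 was called only with Fos (r of 0.55) and Egr3. Egr3 rests on few counts. The relation of Egr2 to Egr3 (r of 0.52, 0.29 without 2 libraries) rests on L day 28 replicates 2 and 3. The windows printed above for Fos, Junb, Nr4a1, Atf3 and Egr2 hold TGACG, but not every Egr2 window does. Egr3 had no entry used here, and any part of the motif in this split was not tested. Mean member level correlated with log2 total counts within groups at r of 0.25 over the 36 libraries, as a description. With the mean levels of 12 lists of cell type markers it correlated at -0.34 (T and NK cells) to 0.43 (neutrophils), with endothelium at 0.40, red blood cells at 0.37, fibroblasts at 0.35, lung epithelium at 0.33, B and plasma cells at -0.21 and fat at -0.16.

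**Figure D4:**
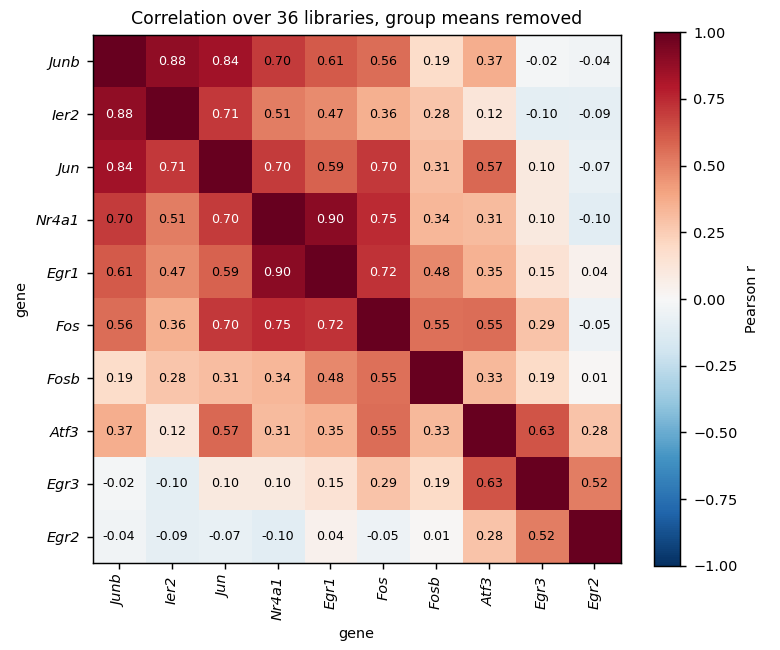
Pearson correlation of each pair of members over the 36 libraries with group means removed, on a scale from -1 (blue) to 1 (red). Junb, Ier2, Jun, Nr4a1, Egr1 and Fos form the red block, with values from 0.36 to 0.90, and Egr2 and Egr3 are near 0 with most others.

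As descriptions, the other genes whose level moved most like the member mean within groups were Zfp36, which speeds decay of cytokine messages (r of 0.87 over the 36 libraries, among 14709 genes with a mean of at least 1 CPM), Cyr61, a secreted matrix-associated protein (0.85), Btg2, an inhibitor of cell division (0.83), Zswim4 (0.80), Trim62 (0.79), Ppp1r15a, which restarts translation after stress (0.78), the cation channel Trpm4 (0.78), the kinase Map3k14 (0.77), Sik1 (0.76) and the MAP kinase phosphatase Dusp1 (0.75). Zfp36, Cyr61, Btg2, Sik1 and Dusp1 belong to the list of other immediate early genes. The lowest values were those of Rab39 (-0.79), Zfp952 (-0.72), Inip (-0.70), Cbx1 (-0.70) and Trim21 (-0.70). Mean levels of 8 other gene lists correlated with the member mean at 0.77 for other immediate early genes, 0.59 for AP-1 partners, 0.52 for clock genes cycling with Dbp, 0.52 for glucocorticoid-induced genes, 0.51 for upstream kinases and factors, 0.43 for hypoxia genes, 0.07 for heat shock chaperones and 0.04 for clock genes cycling with Arntl.

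Within groups the members spread more than most genes. The SD of log2 CPM was 0.74 for Junb, higher than 98.1% of genes tested, 0.61 for Nr4a1 (95.2%), 0.57 for Egr3 (93.2%), 0.55 for Ier2 (92.3%), 0.46 for Egr1 (86.8%), 0.43 for Fosb (84.1%), 0.41 for Fos (81.4%), 0.40 for Atf3 (80.4%), 0.34 for Jun (74.7%) and 0.23 for Egr2 (55.1%). The median gene had 0.21. The libraries that moved were not the same in every group: US day 1 replicate 1 was high for most members, with 65.6 CPM of Junb and 127.8 CPM of Nr4a1, and L day 1 replicate 1, US day 28 replicate 3 and S day 28 replicate 3 were low. At day 28, replicate 3 had the lowest member mean in each group. Relative to the group it was -0.148 in D, -0.571 in US, -0.578 in S and -0.141 in L on the log2 scale. Neutrophil markers (7 genes) summed to between 197 and 651 CPM in the US day 1 libraries and between 144 and 198 in D day 1, and their part was not tested.

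**Figure D5:**
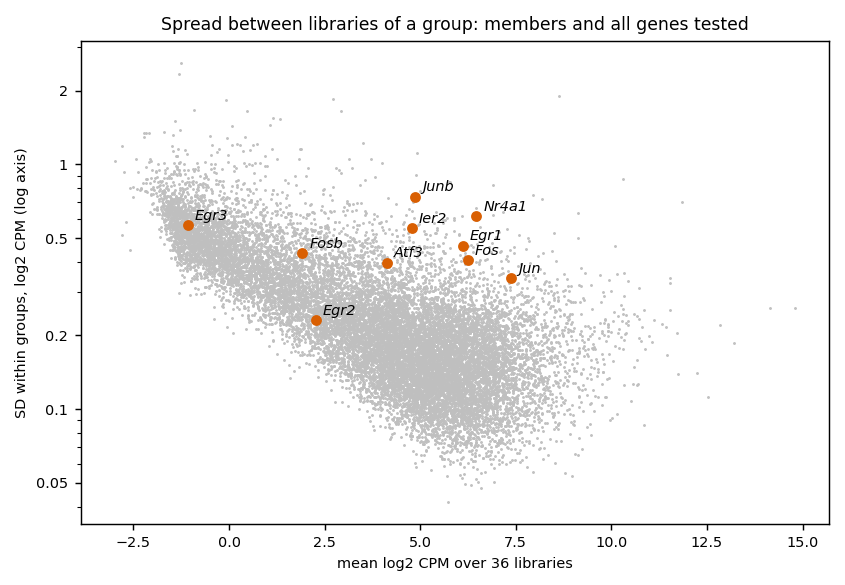
SD of log2 CPM within groups (log axis) against mean log2 CPM for 16903 genes tested (grey), with the 10 members in orange. Most of the members lie above the bulk of genes of like abundance, and Egr2 lies within it.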

How the data were processed

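Lung RNA was sequenced from polyadenylated RNA in 36 libraries with a stranded kit, per the labels' protocols, and RNA of low integrity had been discarded. Whole read counts per gene were deposited by the authors for 46078 genes, and TPM values, which correct for transcript length and library size, were deposited in tables whose headers name them. The submitters' processing notes name STAR 2.5.1b, StringTie 1.3.3, featureCounts 1.5.1, CASAVA and bcl2fastq 2.19.1.403 without roles, and the builds GRCh37 and GRCm38. The scaffold names match GRCm38. No source used here gives the annotation release or the strand setting, so overlapping and antisense genes cannot be told apart with certainty. Genes were filtered by edgeR's filterByExpr (16903 left) and normalised with TMM factors from 0.9322 to 1.059. A single edgeR model (version 4.0.16, R 4.3.3) held all 36 libraries and gave each of the 12 groups its own mean. Each comparison used the two-sided quasi-likelihood F test, adjusted by Benjamini-Hochberg over all genes tested at 0.05. Fold changes are log2 ± SE and values are CPM. Alternatives were relative log expression factors, no filter, a replicate block, DESeq2 1.42.0, only the groups compared, limma 3.58.1 on log2(TPM + 1), and leaving out each library. Correlations used log2 CPM with group means removed and 100000 permutations of libraries within groups. Interactions between days 1 and 7 and between days 7 and 28 were added after seeing the data. Promoter windows came from RefSeq (GRCm38.p6), and motifs were searched on both strands. The scripts were tested on simulated data. The members and gene lists were chosen with earlier results of these data known, and all 10 members are named; other genes are the called members of each list (up to 3 per comparison) and the 10 most and 5 least like the member mean. No 2 libraries of a group agreed within sampling noise (chi-square per degree of freedom at least 6.534).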

Additional observations from a re-analysis of the deposited data

Results flagged for a closer look

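The difference of L from D for Fos lay on opposite sides of 0 at days 1 and 7, with all 3 L libraries above all 3 D libraries at day 1 and all 3 below at day 7. The change from day 1 to day 7 was -2.23 ± 0.43 on the log2 scale, with an adjusted p of 0.0904 in edgeR. That test was added after seeing the data, and called 0 of the 16903 genes in this comparison (563 had an unadjusted p under 0.05). The difference of US from D for Junb did the same, with a change of -2.24 ± 0.75 and an adjusted p of 0.167, in a comparison that called 0.136% of genes. The dextrose groups moved as well. From day 1 to day 7, mean Fos went from 41.0 to 84.4 CPM in D and from 106.4 to 49.2 in L. Mean Junb went from 14.0 to 45.4 CPM in D and from 40.2 to 29.3 in US.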

How the results depend on the processing

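With each library left out in turn, the number of member calls ran from 0 to 2 against D (1 as reported), from 0 to 2 between sizes (1), from 0 to 4 in dextrose over time (2), and was 0 throughout for the change from day 1 to day 28. Without a filter there were 3 calls against D and 2 between sizes. DESeq2 gave 4 and 2. Fitting only the groups compared gave 3 against D, 3 between sizes and 9 in dextrose over time, and limma on TPM gave 0 in dextrose over time. Under relative log expression factors the member counts were unchanged. The replicate block left the member calls at 1, 1, 2 and 0. Correlations of deviations between same-numbered libraries ran from -0.477 to 0.371, and 0 of 21 comparisons had every pair over 0.1. That cut cannot show whether the numbers pair libraries: in L against D at day 7 the values were 0.291, -0.127 and 0.343. At day 28, replicate 3 had the lowest mean of the members in D, US, S and L. The block changed the count of all genes called from 890 to 701 against D, 152 to 140 between sizes, 2659 to 2395 in dextrose over time and 82 to 41 in the interactions. Over all genes, DESeq2 called 2791, 540 and 551 against D, between sizes and in the interactions, fitting only the groups compared 2146 against D and 2638 in the interactions, limma 403, 86, 1344 and 32, and no filter 231 between sizes; leaving out 1 library gave 473 to 3572, 89 to 1013, 17 to 6094 and 12 to 367. The 17 correlated pairs ranged from 12 (without US day 28 replicate 3) to 19. The cause of these changes was not tested. With 3 libraries a group, depth limits Egr3 (1 to 28 counts) most.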
